A study of Mus musculus with 18 samples.

Results

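The glutathione and NRF2 antioxidant genes were examined as a set of 49 among the 14521 named genes measured in mouse skin and skin tumours. The members were chosen by gene symbol: 29 carried the symbol of a glutathione S-transferase (Gst followed by its class letter), a glutathione peroxidase (Gpx) or a peroxiredoxin (Prdx), and 20 were listed by symbol, namely Nfe2l2, Keap1, Nqo1, Hmox1, Gclc, Gclm, Gss, Gsr, Txn1, Txnrd1, Srxn1, G6pdx, Pgd, Taldo1, Tkt, Me1, Sod1, Sod2, Sod3 and Cat. RNA was sequenced from 6 littermate female SKH-1E mice, an outbred strain without fur that develops skin tumours under ultraviolet light, and no genotype or drug treatment differed between groups. Each mouse (numbered 2, 3, 7, 8, 9 and 10) had received chronic low-dose solar-simulated light and gave 3 samples after irradiation had stopped: skin with no lesion (CHR), a papilloma (PAP), the benign tumour of the epidermis, and a squamous cell carcinoma of the skin (SCC), with both kinds of lesion limited to the lower grades. There were thus 18 libraries, n = 6 in each group, and since CHR skin was itself irradiated, there was no unirradiated control among them. CHR was skin tissue, whereas the lesions had been checked by histology and judged to consist mostly of tumour cells.

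Reactive oxygen species, which ultraviolet light produces in skin, are removed by a few linked systems. Superoxide dismutases turn superoxide into hydrogen peroxide, and catalase, glutathione peroxidases and peroxiredoxins remove peroxides, using glutathione or thioredoxin that is in turn reduced with NADPH, while glutathione S-transferases couple glutathione to electrophiles such as the aldehydes of lipid peroxidation. The transcription factor NRF2 (gene Nfe2l2), which is held down by KEAP1 until oxidants or electrophiles release it, binds antioxidant response elements and activates many genes of these systems, and it is known to do so in keratinocytes.

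Values are given as normalised reads, that is, reads per gene divided by the size factor of the library, at a depth of 15.4 to 21.0 M reads. A gene was called when limma gave a Benjamini-Hochberg adjusted p under 0.05 over all 14521 genes, and log2 fold changes are on the compressed log2(value + 1) scale of the deposited values, which understates the change of weakly expressed genes. The tissue markers differed strongly between groups. In PAP, 18 of 18 skeletal muscle markers, 10 of 11 adipocyte markers, 11 of 11 sebaceous gland markers and 8 of 10 dermal fibroblast markers were called lower than in CHR, while 9 of 15 keratinocyte markers were called higher and 2 lower. The carcinoma of mouse 10 stood apart from the other carcinomas. Its summed fibroblast markers were 18430 normalised reads against 126600 to 515800 in the other carcinomas, and its summed muscle markers were 547 against 79270 to 209100. In bulk tissue, fewer cells of a type and less RNA per cell cannot be told apart, and the part of these marker differences in the results on the antioxidant genes was not tested.

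In PAP vs CHR, 24 of the 49 antioxidant genes (49.0%) were called, against 51.5% of all genes. Of these, 9 were higher in PAP (18.4%, against 22.8% of all genes) and 15 were lower (30.6%, against 28.7%). The set as a whole was therefore called about as often as any gene. At an unadjusted p under 0.05 there were 28 members, or 57.1%, against 57.2% of all genes. The libraries of PAP and CHR did not overlap for 6 members that were higher in PAP (12.2%, against 14.4% of all genes) and for 9 that were lower (18.4%, against 19.2%). The median log2 fold change of the members was -0.16, beside 0.001 over all genes. In SCC vs CHR, 19 members (38.8%) were called against 36.5% of all genes, 7 higher (14.3%, against 15.1%) and 12 lower (24.5%, against 21.4%), with a median of -0.06 beside -0.02 over all genes. At an unadjusted p under 0.05 there were 21, or 42.9%, against 46.3% of all genes, and SCC and CHR did not overlap for 3 members that were higher (Gss, Gsta4 and Gsto1, against 8.49% of all genes) and 4 that were lower (Gsta3, Gstm1, Gstt1 and Gstt2, against 11.2%). All 19 were also called in PAP vs CHR in the same direction, in comparisons that share the CHR libraries. They were Gsr, Gss, Gsta1, Gsta4, Gsto1, Nfe2l2 and Txn1 among the higher, and Cat, Gsta3, Gstm1, Gstm2, Gstm4, Gstm5, Gstt1, Gstt2, Gstz1, Me1, Taldo1 and Txnrd1 among the lower. A further 5 were called in PAP vs CHR and not in SCC vs CHR: Keap1 and Nqo1 were higher in PAP, and Gpx3, Gpx7 and Sod3 were lower. Of these 5, the direct comparison of SCC with PAP called Gpx7 and Sod3, and not Keap1, Nqo1 (-0.43 ± 0.39, adjusted p = 0.569) or Gpx3. The other 25 were called in no comparison, among them all 7 peroxiredoxins, both subunits of glutamate-cysteine ligase, Hmox1, Srxn1, Sod1 and Sod2. In SCC vs PAP, 4 members (8.16%) were called, all higher in SCC, against 5.58% of all genes called in either direction, 4.99% higher and 0.592% lower.

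**Figure D1:**
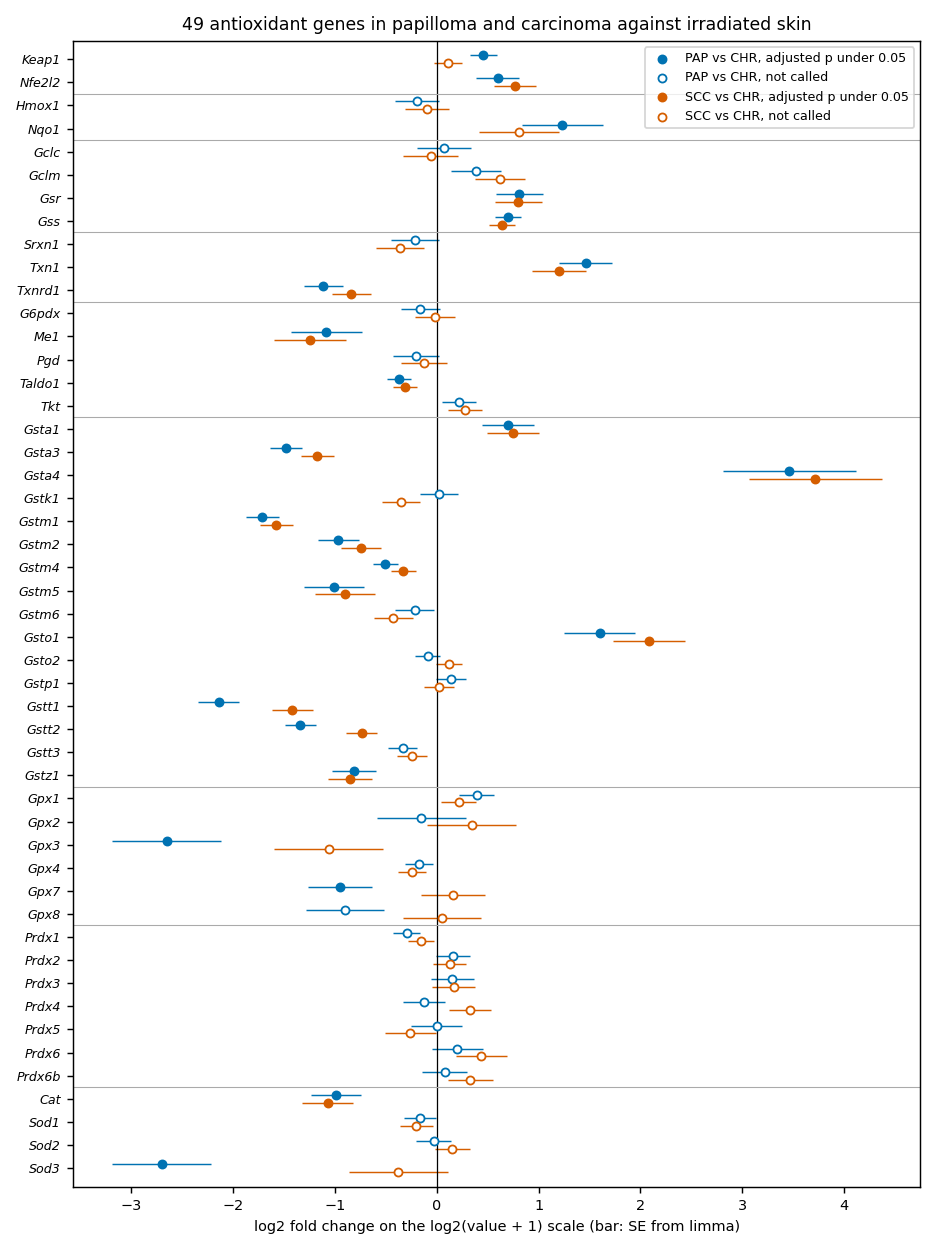
Log2 fold changes of the 49 genes in PAP vs CHR (blue) and SCC vs CHR (orange), on the log2(value + 1) scale, grouped by role with grey lines between groups. Points are limma estimates with their SE, and filled points had an adjusted p under 0.05. Gsta4 lies farthest to the right in both comparisons (3.46 and 3.72), and Sod3 and Gpx3 lie farthest to the left in PAP vs CHR (-2.70 and -2.65) but not in SCC vs CHR (-0.38 and -1.06). This order follows the compressed scale. In normalised reads, the PAP mean was 27.4-fold below CHR for Gstt1 and 25.8-fold for Gsta3, against 14.5-fold for Sod3 and 6.37-fold for Gpx3. The PAP values of Gstt1 (1.03 to 15.0) and Gsta3 (1.32 to 4.10) were only a few reads. With each mouse left out, the ratio was 22.9 to 38.3 for Gstt1 and 22.9 to 28.2 for Gsta3, so the order of these genes is uncertain.

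The regulators came first. Nfe2l2 (chr2:75675513-75704641, GRCm38, minus strand), which encodes NRF2, had 2274 to 2851 normalised reads in CHR with a median of 2673, 2788 to 6505 in PAP with a median of 3832, and 2768 to 8138 in SCC with a median of 4301. Each lesion was above the CHR skin of its own mouse, and only the papilloma of mouse 2 and the carcinoma of mouse 3 lay within the range of the CHR libraries. Nfe2l2 rose by 0.60 ± 0.21 (log2, SE) in PAP (adjusted p = 0.0225, limma) and by 0.77 ± 0.21 in SCC (adjusted p = 0.00798). The first of these calls was lost without mouse 7, 8 or 10 (adjusted p = 0.0534, 0.0684 and 0.0782). Keap1, which encodes the protein that targets NRF2 for degradation, had a median of 1111 in CHR, 1637 in PAP and 1210 in SCC. All 6 papillomas exceeded the CHR skin of their own mouse, and Keap1 rose by 0.46 ± 0.14 on the log2 scale (adjusted p = 0.00941, and 0.0531 without mouse 10), whereas SCC differed from CHR by 0.11 ± 0.14 (adjusted p = 0.544). Keap1 was lower in SCC than in PAP in 6 of 6 mice, but this difference of -0.34 ± 0.14 had an adjusted p of 0.138.

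Nqo1, a quinone reductase often used as a readout of NRF2, had 247 to 339 normalised reads in CHR with a median of 319. It had 429 to 3084 in PAP, with a median of 646, and the groups did not overlap. That of mouse 10, at 3084, stood far above the next papilloma, that of mouse 3 at 1037. Nqo1 rose by 1.24 ± 0.39 in PAP (adjusted p = 0.0142), and without mouse 3 the adjusted p was 0.051. In SCC it ranged from 253 in mouse 7 to 1424 in mouse 2, with 2 of the 6 carcinomas inside the CHR range, and the difference from CHR of 0.81 ± 0.39 had an adjusted p of 0.117. Hmox1, the haem oxygenase that NRF2 shares with the repressor BACH1, had medians of 2015 in CHR, 1798 in PAP and 1940 in SCC, and all 3 groups overlapped (log2 fold changes of -0.19 ± 0.22 in PAP and -0.10 ± 0.22 in SCC, adjusted p = 0.478 and 0.759).

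Since NRF2 acts through antioxidant response elements, the promoters of the members were searched for the core of that element, TGACNNNGC, on both strands (GCNNNGTCA on the other) in a window of 300 bases, 250 before and 50 after each start given for the gene (RefSeq sequences, GRCm38.p6). A gene can have several such starts, and the matches of Txnrd1, G6pdx, Me1, Pgd and Srxn1 lie inside the gene as GENCODE annotates it. A promoter was found for 41 of the 49 members, and 11 of these (26.8%) held at least 1 match, against 16.9% of 10745 genes of the table and 12.39% of all 32851 promoter windows. The matches were spread over the directions of change. Among members with a promoter, they were found in 1 of 7 higher in PAP (Nfe2l2) and in 4 of 13 lower in PAP (Gsta3, Gstm5, Me1 and Txnrd1). They were also found in 6 of 21 that were not called (G6pdx, Gclm, Pgd, Prdx1, Sod1 and Srxn1). The stretches of 30 bases around the match are shown for the higher member, the 4 lower members and a pair of members that were not called, so that members of each kind can be compared, with the match in capitals and each sequence written 5′ to 3′ on the strand of the gene.
Nfe2l2 (chr2:75704884-75704913, minus strand): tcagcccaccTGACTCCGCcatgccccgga
Me1 (chr9:86695901-86695930, minus strand): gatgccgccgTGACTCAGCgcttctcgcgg
Txnrd1 (chr10:82859104-82859133, plus strand): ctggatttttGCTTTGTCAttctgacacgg
Gsta3 (chr1:21240454-21240483, plus strand): aactcaggcaTGACATTGCatttttcttct
Gstm5 (chr3:107895802-107895831, plus strand): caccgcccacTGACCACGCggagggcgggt
Prdx1 (chr4:116685456-116685485, plus strand): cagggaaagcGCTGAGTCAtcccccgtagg
G6pdx (chrX:74428918-74428947, minus strand): aggcgggtcaGCTCAGTCAaagcacacgcc
These matches describe letters in a window and not bound sites. Sequence outside the window was not searched, so the counts cannot show that a member without a match lacks the element. Gclc, Gsr, Gsta4, Gstt2, Hmox1, Prdx6, Prdx6b and Sod3 had no entry.

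The enzymes that make and recycle glutathione divided into a pair that was higher in lesions and a pair that was not called. Gss, glutathione synthetase, which performs the last step of synthesis, had 202 to 278 normalised reads in CHR (median 246), 330 to 694 in PAP (median 423) and 357 to 481 in SCC (median 416). Neither kind of lesion overlapped CHR, and Gss rose by 0.70 ± 0.13 in PAP (adjusted p = 0.000259) and by 0.64 ± 0.13 in SCC (adjusted p = 0.00112). Gsr, glutathione reductase, which regenerates glutathione with NADPH, had 899 to 1134 normalised reads in CHR (median 968), 1306 to 2397 in PAP (median 1692) and 1106 to 3683 in SCC (median 1644). It did not overlap CHR in PAP (0.81 ± 0.23, adjusted p = 0.00698), and in SCC it was higher in 6 of 6 mice (0.80 ± 0.23, adjusted p = 0.0117, and 0.0517 without mouse 8). The carcinoma of mouse 9 was the highest at 3683. The catalytic subunit of the rate-limiting enzyme, Gclc, had medians of 996 in CHR, 1106 in PAP and 919 in SCC and was not called (0.07 ± 0.27 in PAP and -0.06 ± 0.27 in SCC, adjusted p = 0.843 and 0.884). Its modifier subunit, Gclm, had medians of 687, 911 and 1195 normalised reads. In SCC vs CHR, Gclm differed by 0.62 ± 0.25 with an adjusted p of 0.0575, and with a mouse block it passed the test (adjusted p = 0.0434).

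In the thioredoxin system the carrier and its reductase moved in opposite directions. Txn1, thioredoxin, had 1694 to 2499 normalised reads in CHR (median 1879) and 2843 to 7916 in PAP (median 6421), with no overlap, and 2179 to 6926 in SCC (median 4997). Only the carcinoma of mouse 3, at 2179, lay within the CHR range. Txn1 rose by 1.46 ± 0.26 in PAP (adjusted p = 0.000173) and by 1.20 ± 0.26 in SCC (adjusted p = 0.00182). Txnrd1, the selenoprotein that reduces thioredoxin with NADPH, had 2905 to 4068 in CHR (median 3545), 1238 to 2488 in PAP (median 1477) and 1227 to 3074 in SCC (median 1946). It fell in 6 of 6 mice in both comparisons, by 1.11 ± 0.19 on the log2 scale in PAP (adjusted p = 0.000112) and by 0.84 ± 0.19 in SCC (adjusted p = 0.00243). Its highest papilloma, that of mouse 9 at 2488, was still below every CHR library. Srxn1, sulfiredoxin, which repairs over-oxidised peroxiredoxins, had medians of 1378, 1159 and 975 and was not called (-0.21 ± 0.23 in PAP and -0.36 ± 0.23 in SCC, adjusted p = 0.464 and 0.237).

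Of the 5 enzymes of NADPH supply and the pentose phosphate pathway, 2 (40%) were called in each comparison with CHR, both lower. Over all genes, 51.5% were called in PAP vs CHR (28.7% lower) and 36.5% in SCC vs CHR (21.4% lower), so 2 of 5 was about the usual share. Me1, cytosolic malic enzyme, had 700 to 1427 normalised reads in CHR (median 1128), 111 to 831 in PAP (median 508) and 185 to 800 in SCC (median 371). Me1 fell by 1.08 ± 0.35 in PAP (adjusted p = 0.0156, and 0.0673 without mouse 10, whose papilloma was the lowest at 111) and by 1.25 ± 0.35 in SCC (adjusted p = 0.0105). Me1 shares 24.6% of the 50-base stretches of its protein-coding transcripts with other annotated genes, mostly Gm7049, so that its counts could have been split. Taldo1, transaldolase, fell by 0.37 ± 0.12 in PAP (adjusted p = 0.0154) and by 0.32 ± 0.12 in SCC (adjusted p = 0.0459), and it overlapped CHR in both. Its call in PAP was lost without mouse 2, 7 or 10 (adjusted p = 0.0534, 0.0693 and 0.0787), and its call in SCC without any mouse but mouse 9 (up to 0.161). G6pdx and Pgd, the NADPH-producing dehydrogenases of the pathway, and Tkt, transketolase, were not called. G6pdx had medians of 1669, 1491 and 1870 in CHR, PAP and SCC (-0.16 ± 0.20 and -0.02 ± 0.20 against CHR, adjusted p = 0.515 and 0.953). Pgd had medians of 2352, 1925 and 2342 (-0.20 ± 0.23 and -0.13 ± 0.23, adjusted p = 0.478 and 0.69). Tkt had medians of 3679, 4386 and 4761 (0.22 ± 0.17 and 0.28 ± 0.17, adjusted p = 0.299 and 0.217).

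The glutathione S-transferases went in both directions. Among 16 measured genes, PAP vs CHR called 3 higher and 8 lower, that is 18.8% and 50%, against 22.8% and 28.7% of all genes. The same counts were reached in SCC vs CHR, against 15.1% and 21.4% of all genes. Gsta4 (chr9:78182774-78209349), the alpha-class enzyme with high activity towards the aldehydes of lipid peroxidation, had 97.9 to 236 normalised reads in CHR with a median of 160. It had 676 to 11080 in PAP with a median of 2260, and 477 to 9179 in SCC with a median of 4306. Every lesion was above every CHR library, and the lesions themselves differed by more than an order of magnitude. In PAP the mean was 22.4-fold that of CHR, and 12.3-fold without mouse 10, while in SCC it was 28.0-fold. The log2 fold changes were 3.46 ± 0.65 (adjusted p = 0.000278) and 3.72 ± 0.65 (adjusted p = 0.000318). Gsto1 (chr19:47854970-47864790), an omega-class enzyme that reduces dehydroascorbate, had 1373 to 2392 in CHR, 2865 to 9958 in PAP and 3412 to 16250 in SCC, with medians of 1498, 5310 and 7873. It too lay above every CHR library in every lesion, with log2 fold changes of 1.60 ± 0.35 in PAP (adjusted p = 0.00106) and 2.08 ± 0.35 in SCC (adjusted p = 0.000229). Gsto2, whose gene lies just beside Gsto1 within 31.4 kb, had medians of 18.6, 13.6 and 24.8 and was not called.

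**Figure D2:**
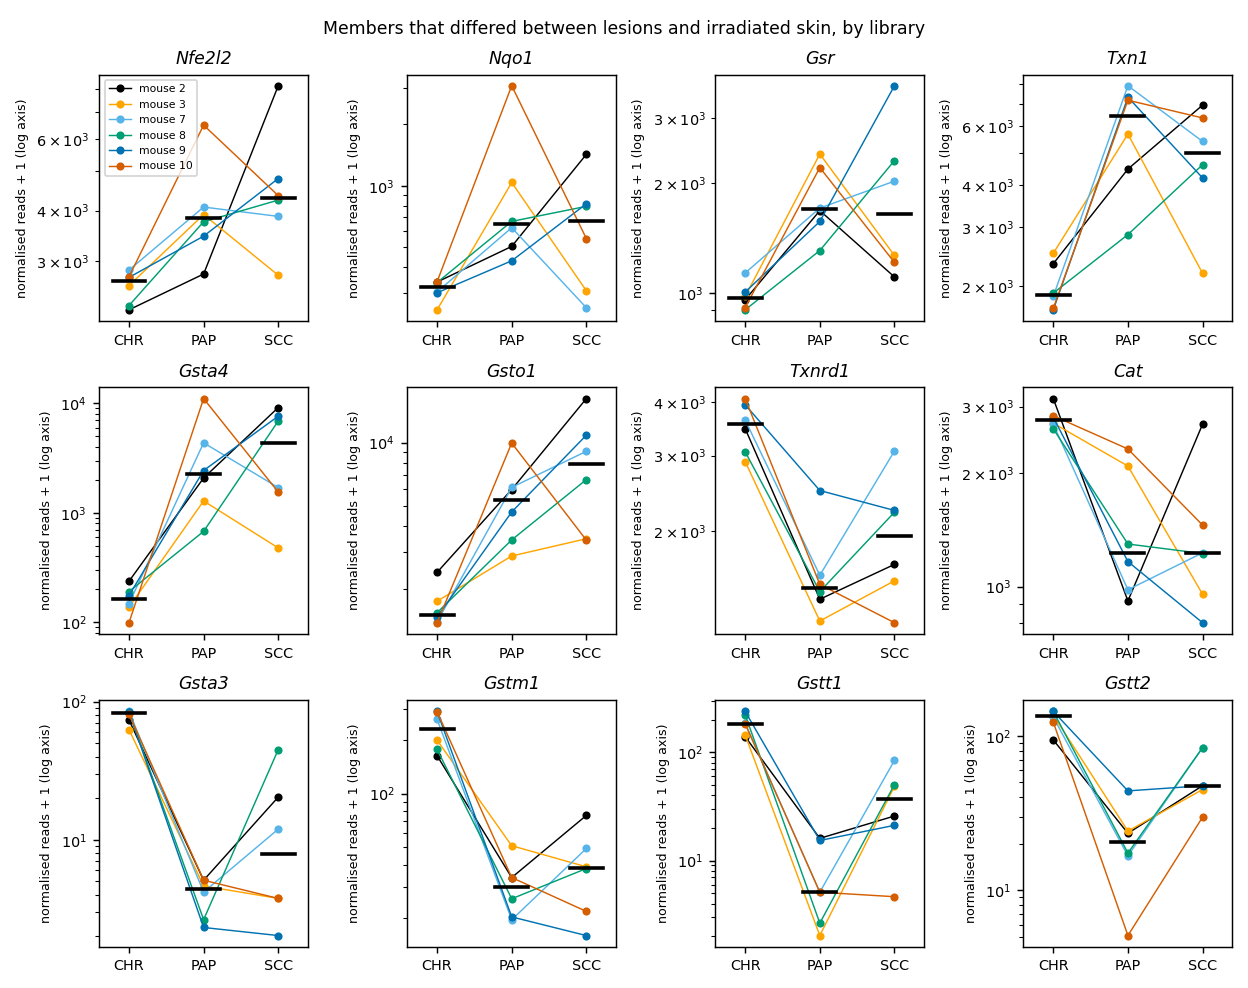
Normalised reads plus 1 (log axis) of 12 members in CHR, PAP and SCC. Each line joins the 3 samples of a mouse, and black bars are group medians. Gsta4 and Gsto1 lay above every CHR library in all 12 lesions, and Gsta3, Gstm1, Gstt1 and Gstt2 lay below every CHR library in all 12.

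The third higher transferase, Gsta1, was scarce. It lies beside Gsta4 within 59.9 kb of chromosome 9, and it had 0 to 2.77 normalised reads in CHR, 0 to 69.0 in PAP and 0 to 59.0 in SCC. All 3 libraries of mouse 3 had 0 reads, which allows up to 3 reads (2.63 to 3.12 normalised reads), and in the other 5 mice both lesions were above CHR. Gsta1 was called in PAP (0.70 ± 0.25, adjusted p = 0.0284) and in SCC (0.75 ± 0.25, adjusted p = 0.0274), but not in limma-voom on recovered reads (adjusted p = 0.108 in both). The limma call in PAP was also lost without mouse 7, 8, 9 or 10 (adjusted p up to 0.102), and that in SCC without mouse 2, 7, 8 or 9 (up to 0.0918). Gsta1 shares 89.7% of the 50-base stretches of its protein-coding transcripts with other genes, mostly Gm3776, so the reads cannot be assigned to it with confidence. The third alpha-class gene, Gsta3, which lies on chromosome 1, went the other way. It had 61.7 to 83.8 normalised reads in CHR, 1.32 to 4.10 in PAP and 1.03 to 43.9 in SCC. It fell by 1.48 ± 0.16 in PAP (adjusted p = 9.27e-07) and by 1.17 ± 0.16 in SCC (adjusted p = 3.08e-05). Its mean in PAP, only a few reads, was 25.8-fold below that in CHR (22.9 to 28.2 with each mouse left out).

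In the mu class, 4 of 5 measured genes (80%) were called lower in PAP vs CHR, against 28.7% of all genes. The same count was reached in SCC vs CHR, against 21.4% of all genes. These 5 genes lie together at chr3:107895821-108044894, a span of 149.1 kb. Their summed normalised reads were 638 to 1437 in CHR, 203 to 631 in PAP and 258 to 764 in SCC, so that PAP did not overlap CHR and SCC overlapped it in 1 carcinoma, that of mouse 2. Gstm1 had 162 to 288 normalised reads in CHR (median 229), 18.6 to 50.1 in PAP (median 28.8) and 15.0 to 74.5 in SCC (median 37.5). Neither lesion group overlapped CHR. Gstm1 fell by 1.71 ± 0.16 in PAP (adjusted p = 3.31e-07) and by 1.58 ± 0.16 in SCC (adjusted p = 3.87e-06). It shares 19.9% of its 50-base stretches with other genes of the cluster and with pseudogenes. Gstm2 fell by 0.97 ± 0.20 and 0.74 ± 0.20 (adjusted p = 0.000647 and 0.00799). Gstm5 fell by 1.01 ± 0.29 in PAP (adjusted p = 0.00814) and by 0.90 ± 0.29 in SCC (adjusted p = 0.0231), and in mouse 3 alone the lesions were not below CHR, where this mouse had the lowest value of its group, 236. The call in SCC was lost without mouse 7, 8 or 9 (adjusted p = 0.0665, 0.0697 and 0.0851). Gstm4 fell by 0.51 ± 0.12 in PAP (adjusted p = 0.00224). In SCC its fold change of -0.33 ± 0.12 had an adjusted p of 0.0438, which rose to 0.0614 with the mouse as a block and to at most 0.14 without mouse 3, 7, 8, 9 or 10. Gstm6 had medians of 46.1, 34.0 and 23.2 and was not called.

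The theta class was lowest in PAP and lay between PAP and CHR in SCC. Its 3 measured genes lie at chr10:75774115-75837424. Gstt1 had 138 to 237 normalised reads in CHR, 1.03 to 15.0 in PAP and 3.64 to 82.9 in SCC, with medians of 183, 4.10 and 36.1. No lesion reached the lowest CHR library. Gstt1 fell by 2.14 ± 0.20 in PAP (adjusted p = 2.97e-07) and by 1.42 ± 0.20 in SCC (adjusted p = 4.59e-05). Its mean in PAP, only a few reads, was 27.4-fold below that in CHR (22.9 to 38.3 with each mouse left out). Gstt2 had medians of 133, 19.4 and 46.5 in CHR, PAP and SCC, and its lesions likewise lay below every CHR library (-1.34 ± 0.15 and -0.73 ± 0.15, adjusted p = 1.73e-06 and 0.00124). Gstt3 had medians of 117, 82.0 and 97.0 and was not called, with an adjusted p of 0.0616 in PAP, and it shares 20.6% of its stretches with other genes. Among the remaining transferases, Gstz1, which acts in tyrosine breakdown, fell by 0.81 ± 0.22 in PAP (adjusted p = 0.00435) and by 0.86 ± 0.22 in SCC (adjusted p = 0.00498), although the papilloma of mouse 10 was at 824, above its own CHR skin at 607. Gstk1 of mitochondria and peroxisomes (medians of 251, 254 and 195) and Gstp1 of the pi class (144, 189 and 157) were not called. Gstp1 shares 51.0% of its stretches with other genes, mostly Gstp2, so its level is uncertain.

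The summed reads of all 16 transferases went with Gsta4 and Gsto1, the most abundant of them in lesions, and not with the larger number of genes that fell. Together they had 4145 to 5592 normalised reads in CHR, 5297 to 22920 in PAP and 5262 to 27560 in SCC.

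Sod3, Gpx3 and Gpx7, which act outside the cell or in the secretory route, were called lower in PAP, while Gpx8 and Prdx4 of the same route were not (Prdx4 -0.12 ± 0.20, adjusted p = 0.639). Sod3, the extracellular superoxide dismutase, had 410 to 758 normalised reads in CHR (median 467), 7.27 to 114 in PAP (median 23.9) and 11.0 to 1249 in SCC (median 484). Every papilloma was below every CHR library, and 5 of the 6 carcinomas had 352 or more, while that of mouse 10 had 11.0. Sod3 fell by 2.70 ± 0.49 in PAP (adjusted p = 0.000187) and was not called in SCC vs CHR (-0.38 ± 0.49, adjusted p = 0.578, and 0.21 on the log2 scale without mouse 10, adjusted p = 0.613). Gpx3, the glutathione peroxidase secreted into plasma, had 1222 to 2276 in CHR (median 1719), 37.1 to 694 in PAP (median 247) and 75.5 to 1834 in SCC (median 1154). It fell by 2.65 ± 0.53 in PAP (adjusted p = 0.000508), and in SCC the difference of -1.06 ± 0.53 had an adjusted p of 0.13, and without mouse 10 it was -0.64 (adjusted p = 0.157). Gpx7, a peroxidase of the endoplasmic reticulum, had medians of 149 in CHR, 59.8 in PAP and 228 in SCC. It fell by 0.95 ± 0.31 in PAP (adjusted p = 0.017, and 0.054 without mouse 7). Gpx8, its close relative in the same compartment, had medians of 311, 118 and 403, with a difference of -0.90 ± 0.38 in PAP that had an adjusted p of 0.0565, and with a mouse block it passed the test (adjusted p = 0.0207).

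Markers of several cell types were low in the same lesions. The 10 dermal fibroblast markers summed to 151900 to 329900 normalised reads in CHR, 5162 to 168500 in PAP and 18430 to 515800 in SCC, and no marker of the list was at 0 in every library of a group. The papilloma of mouse 10 had the lowest marker sum of its group, 5162, and also the lowest Sod3 (7.27), Gpx3 (37.1), Gpx7 (10.3) and Gpx8 (34.5) of the papillomas. In turn, the papilloma of mouse 9 had the highest marker sum, 168500, and the highest Gpx3, Gpx7 and Gpx8, but its Sod3 was 32.0, and the highest Sod3 of the papillomas was that of mouse 2 at 114. Among the carcinomas the highest fibroblast sum was that of mouse 2, which also had the highest Gpx3 (1834) and Gpx8 (562). Sod3 was highest in mouse 7 (1249) and Gpx7 in mouse 3 (344). The 18 skeletal muscle markers summed to 428200 to 640300 in CHR, 359 to 31630 in PAP and 547 to 209100 in SCC, and both lesions of mouse 10 had the lowest muscle sum of their group. The 11 measured myeloid markers summed to 49240 to 76980 in CHR, 10710 to 39150 in PAP and 22830 to 158100 in SCC. These markers did not move together, since 8 were called lower and 2 higher in PAP vs CHR. The highest sum, that of the carcinoma of mouse 9, was mostly S100a8 (52410) and S100a9 (89810). The part of these cell types in the differences was not tested.

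**Figure D3:**
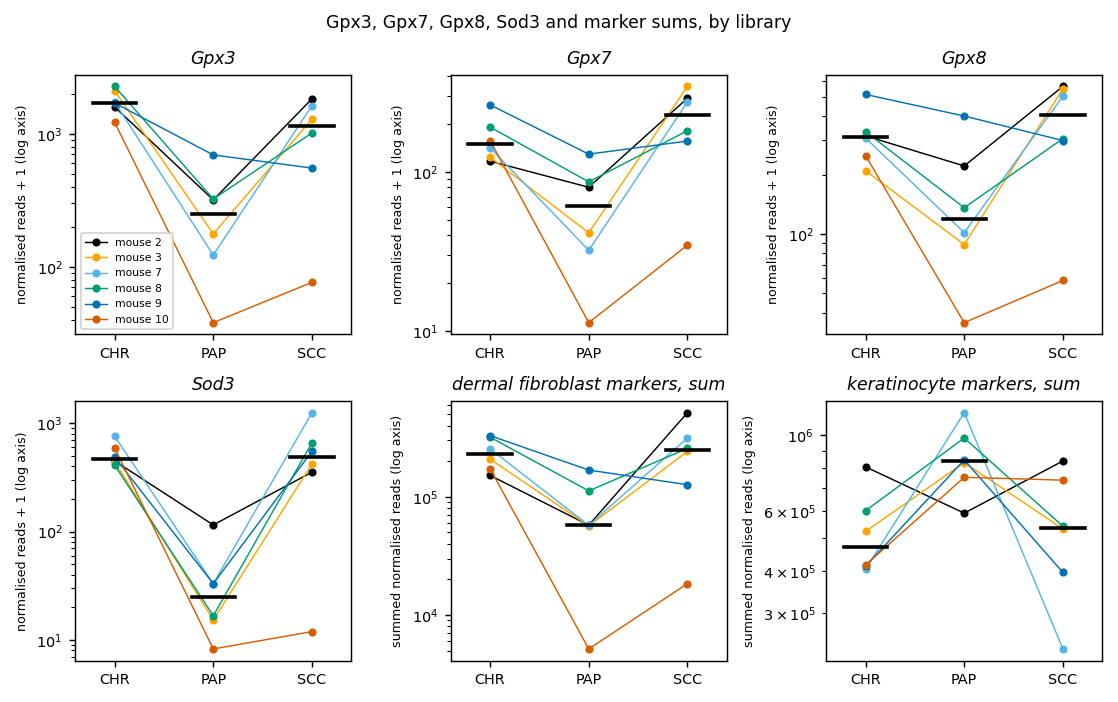
Normalised reads plus 1 of Gpx3, Gpx7, Gpx8 and Sod3, and summed normalised reads of 10 dermal fibroblast and 15 keratinocyte markers, all on log axes. Each line joins the 3 samples of a mouse, and black bars are medians. The 4 genes and the fibroblast sum were lowest in the papilloma of mouse 10, and the carcinoma of mouse 10 stayed low, with Sod3 at 11.0.

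Most intracellular enzymes that remove superoxide or peroxides were not called. Cat, catalase, was the exception and fell by 0.99 ± 0.25 in PAP (adjusted p = 0.00294) and by 1.07 ± 0.25 in SCC (adjusted p = 0.00274). It had 2619 to 3149 normalised reads in CHR (median 2760), 915 to 2315 in PAP (median 1230) and 802 to 2692 in SCC (median 1225), with the carcinoma of mouse 2, at 2692, the only lesion within the CHR range. The papillomas of mice 3 and 10, highest in Cat (2086 and 2315), also had the highest summed red cell markers (67590 and 42910). Among the carcinomas, that of mouse 10 had the highest such sum (35860) with Cat at 1455, while that of mouse 2 had 2437. The part of red cells was not tested. Gpx1, the main cytosolic glutathione peroxidase, had medians of 8727, 11250 and 9105 and was not called in PAP vs CHR (0.39 ± 0.17, adjusted p = 0.0643). Gpx4, which reduces lipid hydroperoxides in membranes, had medians of 87.6, 80.6 and 64.4, and since 51.4% of its stretches are shared, mostly with Gpx4-ps2, its level is uncertain. Gpx2, best known from the lining of the gut, ranged from 9.67 to 420 normalised reads in SCC and was not called. None of the 7 peroxiredoxins was called, against the same 51.5% and 36.5% of all genes. Their log2 fold changes lay between -0.30 and 0.20 in PAP vs CHR and between -0.26 and 0.44 in SCC vs CHR. Prdx1, a cytosolic peroxiredoxin, differed by -0.30 ± 0.13 in PAP (adjusted p = 0.0628), and without mouse 3 it was called lower (-0.43, adjusted p = 0.00815). The mitochondrial Sod2 had medians of 2002, 2014 and 2158 (-0.03 ± 0.17 in PAP and 0.15 ± 0.17 in SCC, adjusted p = 0.893 and 0.509). Sod1, the cytosolic form, had medians of 177, 138 and 149 (-0.17 ± 0.16 and -0.20 ± 0.16 against CHR, adjusted p = 0.397 and 0.346) and shares 23.1% of its stretches with other genes.

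The comparison of SCC with PAP asked what distinguishes the carcinoma from the benign lesion, and it called Sod3, Gpx7, Gstt1 and Gstt2, all higher in SCC. Sod3 was higher in 6 of 6 mice, by 2.33 ± 0.49 (adjusted p = 0.0231), and its mean was 15.0-fold that in PAP, or 28.5-fold without mouse 2, whose papilloma was the highest. Gpx7 was higher in 6 of 6 mice by 1.11 ± 0.31 (adjusted p = 0.0475), Gstt2 in 6 of 6 by 0.61 ± 0.15 (adjusted p = 0.0341) and Gstt1 in 5 of 6 by 0.72 ± 0.20 (adjusted p = 0.045). The groups overlapped for each of the 4 genes. Markers of other cell types were higher in the same comparison, with 16 of 18 skeletal muscle, 6 of 11 myeloid, 4 of 9 endothelial, 2 of 10 fibroblast, 1 of 11 adipocyte and 1 of 11 sebaceous gland markers called higher in SCC and 3 of 15 keratinocyte markers called lower, and their part in these calls was not tested. Gpx3 (1.59 ± 0.53) and Gpx8 (0.96 ± 0.38) were higher in 5 of 6 mice, with adjusted p of 0.0816 and 0.143. A mouse block gave a count of 5, with Gpx3 added (adjusted p = 0.0308). Without mouse 10, whose carcinoma was the lowest of its group in all of these 6 genes, it was 6, with Gpx3 and Gpx8 added (adjusted p = 0.00226 and 0.0175). The calls were fragile in other respects. The count was 0 in limma-voom, in a fit of only these 2 groups, and without mouse 3, 7 or 8, and 1 without mouse 2 or 9. The calls over all 14521 genes moved in the same way. They were 810 in the main fit, 1430 with the mouse block and 2123 without mouse 10. They were 279 without mouse 2, 413 without mouse 9, and 0 in each setting that called 0 members. No member was called lower in SCC than in PAP by limma, and 8 members in all (16.3%) had an unadjusted p under 0.05, against 22.6% of all genes. Groups without overlap were found for no member, against 0.255% of all genes higher and 0.158% lower.

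Levels were compared between genes after division by exon length, as mean normalised reads per kilobase. That length joins the exons of all annotated transcripts, so the order of genes depends on the annotation. Sod1, for instance, has 3970 bases of exon but 592 distinct 50-base stretches in its protein-coding transcripts, and Pgd has 6447 and 2169. The levels of Gpx4, Gstp1 and Gsta1 remain uncertain here because of their shared stretches. In CHR the order began with Gpx1 (6058 ± 591, SD), Prdx5 (2224 ± 481), Txn1 (1901 ± 320), Hmox1 (1208 ± 231), Cat (1073 ± 71.7), Gpx3 (978 ± 207) and Gsto1 (814 ± 192). Prdx5 and Txn1 were within their spread of each other, as were Hmox1, Cat and Gpx3. Gpx1 stood first in all 3 groups. In PAP it was followed by Txn1 (5611 ± 1861), Gsta4 (2886 ± 3041) and Gsto1 (2717 ± 1259), and in SCC by Txn1 (4701 ± 1615), Gsto1 (4098 ± 2426) and Gsta4 (3616 ± 2963). These last 3 did not differ beyond their spread in SCC, nor did Gsta4, Gsto1 and Prdx5 (2353 ± 990) in PAP. Gsta4 was at place 31 of 49 in CHR, place 3 in PAP and place 4 in SCC, and without mouse 10 it was at place 5 in PAP, with 1713. Gpx3 went from place 6 in CHR to place 28 in PAP and 11 in SCC, and Sod3 from place 30 to place 45 and 29.

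Lesions differed from each other more than the skin samples did. The median SD over the 49 members, on the log2 scale of normalised reads plus 1, came to 0.23 for CHR, 0.54 for PAP and 0.60 for SCC, beside 0.22, 0.41 and 0.41 over all genes. The papilloma of mouse 10 had the highest value of its group for 17 members (34.7%), against 21.1% of all genes, and these included Nfe2l2 (6505), Nqo1 (3084), Gsta4 (11080), Gsto1 (9958), Gss (694), Gclc (2197) and Pgd (4624). The carcinoma of mouse 2 had the highest value for 23 members (46.9%), against 16.8% of all genes. Among these were Nfe2l2 (8138), Nqo1 (1424), Gsta4 (9179), Gsto1 (16250), Gclc (2130), Gclm (1958), Gpx2 (420) and Prdx6 (4934). The carcinoma of mouse 3 had the lowest value for 16 members (32.7%), against 10.9% of all genes, with Gsta4 at 477 and Txn1 at 2179. CHR skin of mouse 3 was also lowest in its group, for 21 members (42.9%) against 19.7% of all genes. The carcinoma of mouse 2 had the highest fibroblast marker sum (515800) and muscle marker sum (209100) of the carcinomas and also the highest keratinocyte marker sum (839900).

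**Figure D4:**
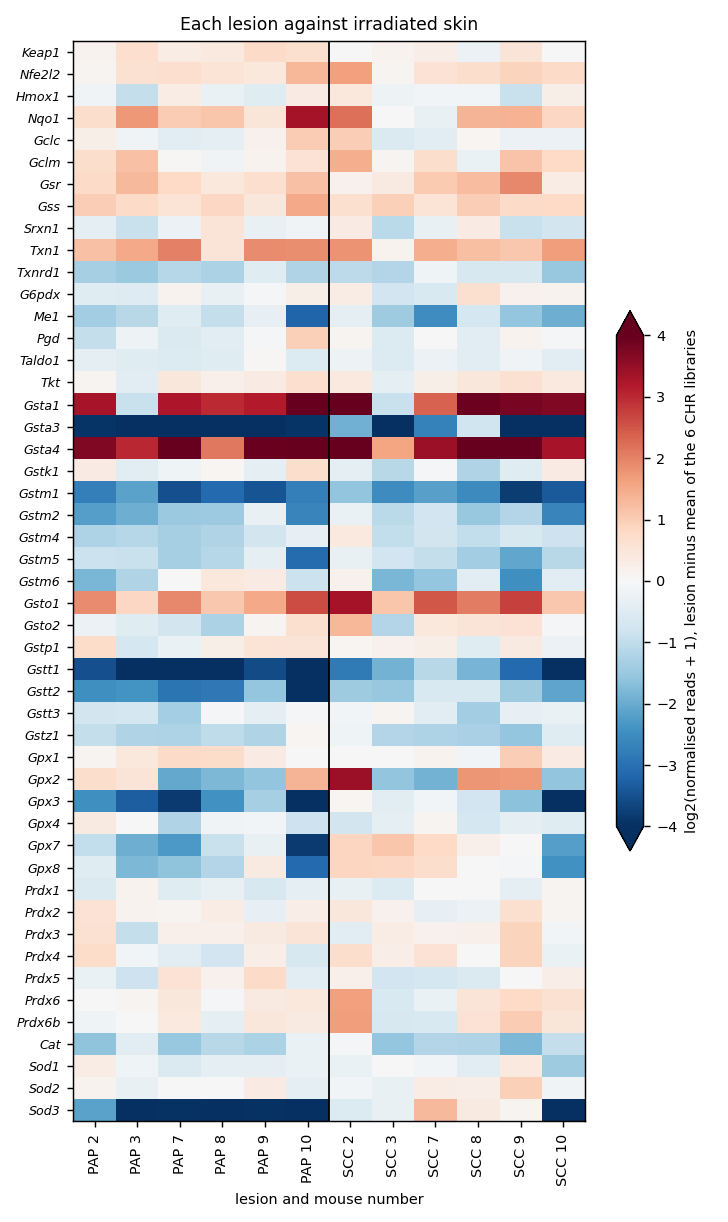
Each lesion against the mean of the 6 CHR libraries, as a difference in log2(normalised reads + 1), for the 49 members in rows and 12 lesions in columns. Red is higher and blue lower than CHR, and the colour ends at 4. Gsta4 and Gsto1 were above CHR in every lesion, whereas Nqo1 was highest in the papilloma of mouse 10 and the carcinoma of mouse 2.

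Other genes of the same pathways were described from lists outside the 49. Of 29 other glutathione genes in the table, 4 were called higher (13.8%, against 22.8% of all genes) and 9 lower (31.0%, against 28.7%) in PAP vs CHR. The counts in SCC vs CHR were 2 and 9 (6.9% and 31.0%, against 15.1% and 21.4%). Glo1, the glyoxalase that clears methylglyoxal with glutathione, rose by 0.93 ± 0.15 in PAP (adjusted p = 6.36e-05), and Hagh, the next enzyme of that route, by 0.62 ± 0.11 (adjusted p = 0.000137). The largest falls of this list were in peptidases and transferases that break down extracellular glutathione and its conjugates. Dpep1, a dipeptidase, fell by 3.12 ± 0.33, and Anpep, an aminopeptidase, fell by 2.71 ± 0.45 (adjusted p = 7.76e-07 and 8.31e-05). Of 14 other thioredoxin genes, 4 were higher (28.6%) and 5 lower (35.7%) in PAP, against the same 22.8% and 28.7% of all genes. Txndc17 rose by 1.20 ± 0.15 (adjusted p = 5.53e-06), and Txnip, which binds and inhibits thioredoxin, fell by 2.10 ± 0.25 (adjusted p = 3.51e-06), from a median of 12590 normalised reads in CHR to 2617 in PAP.

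Of 26 other genes known as NRF2 targets, 2 were called higher (7.69%, against 22.8% of all genes) and 14 lower (53.8%, against 28.7%) in PAP vs CHR. In SCC vs CHR they were 1 (3.85%, against 15.1%) and 10 (38.5%, against 21.4%), and the list had median log2 fold changes of -0.41 and -0.29 in these comparisons beside 0.001 and -0.02 over all genes. The 2 higher in PAP were Akr1b8, an aldo-keto reductase, which rose by 1.57 ± 0.28 (adjusted p = 0.000161) and was highest in the papilloma of mouse 10, and Rpe of the pentose phosphate pathway, which rose by 0.28 ± 0.10 (adjusted p = 0.0338). Akr1c14, another aldo-keto reductase, fell by 3.28 ± 0.28, Aldh3a1, an aldehyde dehydrogenase, fell by 2.66 ± 0.51, and Ephx1, microsomal epoxide hydrolase, fell by 1.74 ± 0.28 (adjusted p = 1.69e-07, 0.000336 and 6.76e-05). Of 18 partners and regulators of NRF2, 4 were higher (22.2%) and 6 lower (33.3%) in PAP, against 22.8% and 28.7% of all genes. Of the 3 small MAF genes, whose products pair with NRF2, Maff and Mafg rose by 0.65 ± 0.24 and 0.32 ± 0.11 (adjusted p = 0.0309 and 0.0251), and Mafk was not called (0.12 ± 0.13, adjusted p = 0.47). Sqstm1, whose product p62 binds KEAP1, fell by 0.69 ± 0.18 (adjusted p = 0.00348), and Bach2, a repressor of the same element, fell by 1.03 ± 0.15 (adjusted p = 1.9e-05). In SCC vs PAP, 1 gene of these 4 lists was called higher and 1 lower, both of the glutathione list (Dpep1, 1.52, adjusted p = 0.0245, and Hagh, -0.44, adjusted p = 0.0327).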

How the data were processed

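The authors aligned paired-end reads to the mouse build mm10 (GRCm38), counted them per gene with HTSeq, scaled the counts and passed them through the variance-stabilizing step of DESeq2. What they deposited is a score for expression, rounded to whole numbers after that step and not on a log scale, in which 0 reads appear as 39. Versions, annotation release and strand setting are not given in the sources used here. The methods also name a scaling of batches, but no batch is labelled.

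Reads were recovered by inverting the transformation (zero level 39.12, size factors 0.834 to 1.178). For 97.7% of all values, and all values under 100, the nearest whole read count, transformed forward and rounded, gave the deposited number exactly. Of 14542 entries, 21 had a number for a symbol (at most 0.236% of a library) and were left out. limma 3.58.1 (R 4.3.3) was fitted on log2(value + 1) with 1 coefficient per group and all 18 libraries, and tested two-sided, with adjustment over 14521 genes. Scripts were tested on simulated data. Positions and lengths are from GENCODE M21 (GRCm38), in which all 49 members were found. Stretches shared with other genes were counted over 50-base windows of its transcripts.

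The same mouse gave a sample to each group, by the number in its label. Deviations of same-numbered samples from their group means correlated between -0.23 and 0.22 (CHR and PAP), -0.09 and 0.51 (CHR and SCC) and -0.24 and 0.39 (PAP and SCC). The alternatives were a block for the mouse, a fit of only 2 groups, limma-voom on recovered reads with either scaling, log2(normalised count + 1), a minimum mean of 50 normalised reads, and leaving out each mouse. The members and lists were chosen with earlier results of these data known. Full statistics were printed for the members listed by symbol, the 8 largest changes in each direction against CHR and those called in SCC vs PAP, and, from each other list, up to 4 called genes in each direction were eligible. Genes singled out among the lesions with the highest or lowest values were chosen after their values were seen.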

Additional observations from a re-analysis of the deposited data

Results flagged for a closer look

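The values of each member were searched for a library far from the other 5 of its group, by the ratio of its gap to the range of the group. Chance gives such a library in about 1 in 20 groups, and 7 of 147 groups had one, none of them in CHR, 4 in PAP and 3 in SCC. The papilloma of mouse 10 was high in Gstz1, at 824 normalised reads against a median of 344 in the other papillomas, and the carcinoma of mouse 10 was low in Gpx8, at 57.2 against 501. In the papilloma of mouse 9, Taldo1 was high at 1624 against 1120, and Txnrd1 was high at 2488 against 1449. The papilloma of mouse 3 was low in Prdx3, the mitochondrial peroxiredoxin, at 474 against 1167, and the carcinoma of the same mouse was low in Tkt at 2736 against 4776. The carcinoma of mouse 2 was high in Gstm4, at 105 against 44.8. Differences between groups in the response to a shared contrast were not tested, since the design has no second factor.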

How the results depend on the processing

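No member reversed direction where it was called. In PAP vs CHR the counts stayed within 1.5 times those reported under every alternative, with 6 to 10 members higher and 13 to 17 lower, as did those in SCC vs CHR, with 6 to 8 higher and 9 to 12 lower. In SCC vs PAP the 4 members called higher became 0 in limma-voom, 0 in limma-voom with trimmed-mean scaling and 0 with only the 2 groups in the fit, and they ranged from 0 to 6 as each mouse was left out (0 without mouse 3, 7 or 8, 1 without mouse 2 or 9, 6 without mouse 10). Over all genes, limma-voom called 0 in this comparison, with 3088 at an unadjusted p under 0.05. Every other setting that called 0 members here also called 0 of all genes. The cause was not tested. With the mouse as a replicate block, from the labels' mouse numbers, the counts were 9 higher and 16 lower for PAP vs CHR, 5 and 0 for SCC vs PAP, and 8 and 11 for SCC vs CHR. The block added Gpx8, Gpx3 and Gclm to these in turn and ended the call of Gstm4 in SCC vs CHR, and it changed no other call of a member. limma-voom with the block, an alternative chosen after seeing the data, called 6 higher in SCC vs PAP. The trimmed-mean scaling moved all genes by 0.06 (log2) against CHR. A minimum mean of 50 normalised reads left 45 members. The members that this minimum left out, Gsta1, Gsta3, Gstm6 and Gsto2, are limited by counting. So is Gpx2 in CHR and PAP, with means of 47.1 and 41.5.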
